A study of Mus musculus with 78 samples.

Results

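The Sall family holds the 4 mouse zinc finger transcription factor genes Sall1, Sall2, Sall3 and Sall4, picked by gene symbol from 54446 genes in the RNA-seq tables and from 54435 genes in the nascent RNA table. All 4 were found in every RNA library. The samples are V6.5 mESCs (mouse embryonic stem cells) in which the endogenous heterochromatin corepressor TRIM28 carries an FKBP degradation tag, so that dTAG-13, a ligand given at 500 nM, directs the tagged protein to degradation. The tagged line was made from picked single colonies, and its cells were expanded on feeder fibroblasts in serum and LIF. Per the study's methods, feeders were removed in 2 rounds before treatment, and the mESCs were then kept on gelatin. Nascent RNA was measured by TT-SLAM-seq, in which RNA made during 15 min of 4-thiouridine labelling is enriched and counted, in 3 libraries per group, a DMSO control and dTAG-13 treatments lasting 2 h, 6 h or 24 h. PolyA RNA-seq of the same line, again with 3 libraries per group, adds a treatment of 96 h to those 4 conditions, with 3 more libraries each from the untagged, untreated parental mESCs and from NPCs (neural progenitor cells) kept in DMSO. A tagged line with short hairpins against repeat RNAs gave total RNA from 3 libraries each in DMSO, in dTAG-13 and in dTAG-13 with doxycycline (Dox), all at 24 h. For these 9 libraries the labels name 24 h of Dox at 2 ug/ml before treatment in all 3 groups, whereas their treatment tag names Dox for the third group alone, so the Dox status of the first 2 groups is uncertain. ChIP-seq peaks came from DMSO and from 24 h of dTAG-13, in 3 libraries per group for the histone marks H3K27Ac and H3K9me3 and in 2 for RNAPII and for MED23, a subunit of the Mediator coactivator.

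SALL proteins carry clusters of zinc fingers, through which SALL4 binds A/T-rich DNA. A short motif at the N terminus of SALL proteins recruits the NuRD histone deacetylase and remodelling complex. Sall4 is needed in the early embryo and in mESCs, where its protein meets POU5F1 (OCT4) and NANOG at shared targets, and Sall1 is also made there. Sall1, Sall2 and Sall3 have later roles in kidney, limb, eye and nervous system, and Sall2, which is the most distant in sequence, is abundant in the brain.

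On the GRCm38 (mm10) assembly all 4 genes lie on the minus strand. Sall1 (ENSMUSG00000031665) occupies chr8:89027235-89044162, Sall2 (ENSMUSG00000049532) chr14:52311172-52328762 and Sall4 (ENSMUSG00000027547) chr2:168748332-168767943. Sall3 is listed as ENSMUSG00000024565. The start of Sall4 overlaps the plus-strand transcript Gm14261, which stayed between 0.212 and 1.03 TPM in all RNA-seq libraries. The other 3 genes overlap no annotated gene. Of the 231 super-enhancers (SEs, long clusters of strongly marked enhancers) that the study took from an earlier mESC annotation, one covers the start of Sall4 at chr2:168764189-168791670. Another, at chr8:88990915-89016277, ends downstream of the 3' end of Sall1 and 27885 bp from its start. Sall2 and Sall3 have no listed SE within 100 kb of their starts.

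Stretches of 300 bases from 4 places carry the chromatin part of the results, and each is given 5' to 3'. The first 3 are promoter windows from RefSeq (GRCm38.p6), on the coding strand, with every CG pair in capitals. They are the Sall1 window that MED23 peaks covered in all 4 libraries (chr8:89042813-89043112), the Sall2 window at the annotated gene start (chr14:52328621-52328920) and the Sall2 window at an inner transcript start (chr14:52316274-52316573). The last is centred on the strongest MED23 peak of the SE near Sall1 (chr8:89003534-89003833, plus strand, 40478 bp from the gene start and outside the gene), with a joined POU and SOX motif, TTTGCATAACAA, in capitals.
Sall1 inner promoter: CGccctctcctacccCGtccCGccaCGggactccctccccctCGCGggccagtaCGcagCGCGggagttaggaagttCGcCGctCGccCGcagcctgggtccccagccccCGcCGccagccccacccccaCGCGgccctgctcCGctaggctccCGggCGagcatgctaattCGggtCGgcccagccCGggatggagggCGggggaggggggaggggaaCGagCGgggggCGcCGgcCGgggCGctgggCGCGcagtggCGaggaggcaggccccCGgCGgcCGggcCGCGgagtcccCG
Sall2 gene start: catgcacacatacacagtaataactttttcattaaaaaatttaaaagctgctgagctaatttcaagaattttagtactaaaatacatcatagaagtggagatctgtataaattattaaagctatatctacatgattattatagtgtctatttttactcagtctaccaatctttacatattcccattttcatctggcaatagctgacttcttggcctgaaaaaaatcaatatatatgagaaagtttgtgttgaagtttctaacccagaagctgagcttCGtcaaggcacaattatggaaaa
Sall2 inner start: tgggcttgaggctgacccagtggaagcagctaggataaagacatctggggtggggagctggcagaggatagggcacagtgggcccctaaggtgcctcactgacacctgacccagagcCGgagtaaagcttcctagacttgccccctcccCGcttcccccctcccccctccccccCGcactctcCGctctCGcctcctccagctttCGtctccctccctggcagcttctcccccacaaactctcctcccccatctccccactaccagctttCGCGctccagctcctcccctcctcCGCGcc
MED23 summit in the Sall1 SE: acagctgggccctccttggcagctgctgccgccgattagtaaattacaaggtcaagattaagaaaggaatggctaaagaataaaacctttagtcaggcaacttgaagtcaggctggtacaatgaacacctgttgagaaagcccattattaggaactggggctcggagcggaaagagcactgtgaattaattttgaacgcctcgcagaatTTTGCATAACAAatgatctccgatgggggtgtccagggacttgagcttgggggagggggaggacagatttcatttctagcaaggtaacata

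The printed Sall1 window is 79.7% G and C and holds 39 CG pairs, against a median of 52.7% and 7 CG pairs over the 32851 RefSeq promoter windows of the same length. It is the richest of the Sall1 windows. The Sall1 window at the gene start is 57.3% G and C with 18 CG pairs, and the one between them 70.0% with 27. The 2 Sall2 windows differ from each other. The one at the gene start is 30.3% G and C with 1 CG pair, and 1.16% of all promoter windows are at or below that GC content. The inner one is 65.0% G and C with 10 CG pairs. The POU and SOX motif, whose letters were chosen after the sequence had been read, occurs on either strand in 2 of 231 SE summit windows (0.866%) and in 1 promoter window of 32851. The octamer ATGCAAAT, the SOX core AACAAT and the A/T motif AATATT known for SALL4 were searched on both strands and occur in none of the 4 windows. They occur in 1.74%, 10.7% and 6.81% of promoter windows, in that order. A match describes letters only.

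Nascent transcription of Sall1, Sall3 and Sall4 fell after 24 h of dTAG-13, while at 2 h and 6 h none of the 3 passed the test. TT-SLAM-seq values are FPKM, which the authors scaled to the whole gene span and to the library. The span made it possible to recover the reads behind them, from 796 to 3679 per library for Sall4, 200 to 958 for Sall1, 50 to 235 for Sall2 and 21 to 221 for Sall3. Library totals ran from 6480611 to 24259317 reads. The filter on low values asked for 0.5 FPKM in at least 3 libraries. Sall2 did not pass it and Sall3 passed through its DMSO and 2 h libraries, so 3 of the 4 genes were tested among 13357.

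Sall1 was at 2.75, 2.80 and 2.84 FPKM in DMSO. After 2 h of dTAG-13 it was at 3.07, 3.31 and 3.03, after 6 h at 2.91, 3.02 and 3.41 and after 24 h at 1.64, 1.64 and 1.82. Every 2 h and 6 h library lay above DMSO and every 24 h library below it. At 24 h the mean fell by 39.1%, with a log2 change of -0.58 (SE 0.07, adjusted p = 0.000243, limma). Sall3 was at 0.543, 0.526 and 0.339 FPKM in DMSO. After 2 h of dTAG-13 it was at 0.671, 0.753 and 0.621, after 6 h at 0.385, 0.336 and 0.373 and after 24 h at 0.100, 0.118 and 0.160. Its 2 h libraries were all above DMSO and its 24 h libraries all below. The 24 h mean fell by 73.1%, the steepest linear fall of the family, which on the log2(FPKM + 0.5) scale reads -0.62 (SE 0.10, adjusted p = 0.000900, limma).

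Sall4, the member with the most nascent RNA, stood at 9.63, 9.03 and 6.58 FPKM in DMSO. After 2 h of dTAG-13 it was at 11.5, 10.6 and 10.8, after 6 h at 7.33, 8.99 and 7.61 and after 24 h at 6.06, 4.79 and 6.26. DMSO replicate 3 was close to the 24 h libraries, although no library of the 2 groups overlapped. The 24 h mean fell by 32.2%, with a log2 change of -0.51 (SE 0.15, adjusted p = 0.0233, limma). That call did not hold without DMSO replicate 1 (adjusted p = 0.0849, limma), DMSO replicate 2 (0.0778) or 24 h replicate 2 (0.0955), or with only these 2 groups fitted (0.0750). Of all genes tested, 5.59% were called lower at 24 h and 32.3% higher. Sall1 and Sall4 were among the lower ones. So was Sall3, which had entered the test only through groups where it was high, and with no filter on low values it was lower too (adjusted p = 0.000975, limma). None of the 3 passed a 2-fold limit on that scale. The median log2 change of all genes was 0.21, and with each library centred on its median the changes were -0.83 for Sall1, -0.87 for Sall3 and -0.76 for Sall4.

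Sall2 alone was higher at 24 h. Its libraries read 0.390, 0.248 and 0.314 FPKM in DMSO. After 2 h of dTAG-13 it was at 0.380, 0.396 and 0.456, after 6 h at 0.470, 0.489 and 0.483 and after 24 h at 0.551, 0.471 and 0.737. The 6 h and 24 h libraries were all above DMSO, and the 2 h libraries overlapped with it. With no filter on low values the log2 change at 24 h was 0.41 (SE 0.09, adjusted p = 0.0123, limma). On the recovered reads, an alternative chosen after the data were seen, limma's voom gave 0.47 with an adjusted p of 0.0690, so the nascent rise of Sall2 depended on the test.

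**Figure D1:**
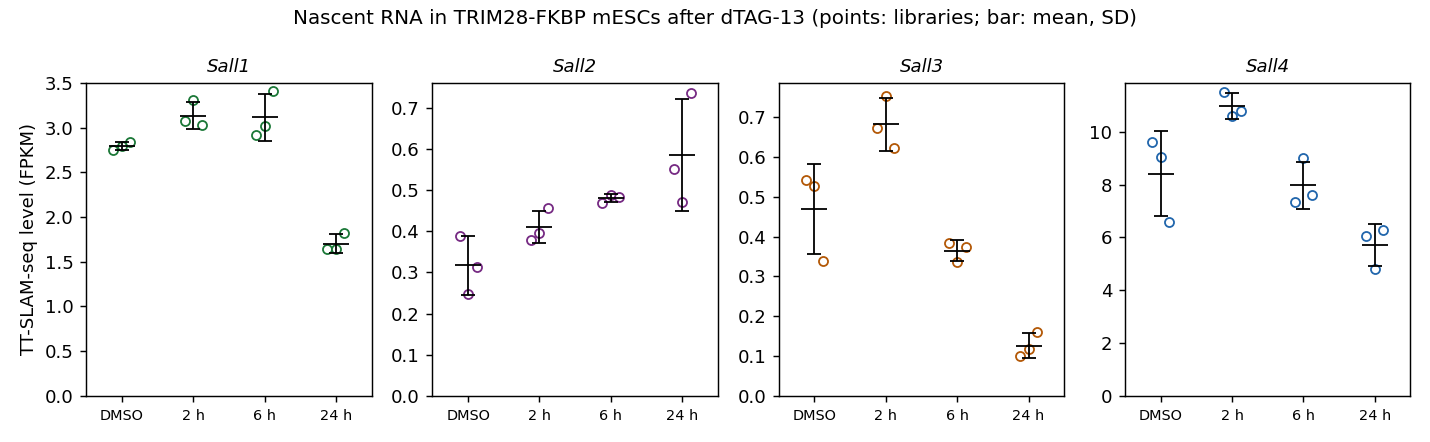
Nascent RNA of the 4 Sall genes in FPKM (vertical axes, each from 0) for the DMSO, 2 h, 6 h and 24 h groups, with a point per library and the mean and SD of 3. Sall1, Sall3 and Sall4 are lowest at 24 h, at means of 1.70, 0.126 and 5.71 FPKM, whereas the mean of Sall2 goes from 0.317 to 0.586 FPKM.

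At 2 h the Sall1, Sall3 and Sall4 libraries all exceeded DMSO, by 12.2%, 45.3% and 30.3% of the mean. How many of all genes lack overlap in this way was not counted, so it says little alone. Of the 3 genes 0 were called, with 1.58% of all genes called higher and 1.97% lower. The log2 changes were 0.14, 0.29 and 0.38 (adjusted p of 0.279, 0.126 and 0.190, limma), and Sall3 and Sall4 had an unadjusted p under 0.05. Voom on the recovered reads called 2 of the 4 genes at 2 h, Sall3 at 0.68 (adjusted p = 0.00854) and Sall4 at 0.51 (adjusted p = 0.0103). At 6 h 0 of 3 were called, 0 of them also at an unadjusted p under 0.05, with 7.82% of all genes called higher and 1.27% lower. The same voom fit called Sall1, Sall3 and Sall4 lower at 24 h, at -1.10, -2.33 and -0.92. The share of all genes called by voom was not counted at 2 h or 24 h, so its calls have no background beside them.

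In steady-state RNA Sall1 and Sall4 both fell through 96 h, while Sall2 and Sall3 each took another course. TPM is scaled to transcript length, so levels can be set side by side. In DMSO the order was Sall4, Sall1, Sall2 and Sall3, with no overlap between neighbours, and Sall4 had 3.16 times the TPM of Sall1. Sall1 was at 63.7, 62.8 and 64.5 TPM in DMSO. With dTAG-13 it read 51.5, 49.1 and 49.3 after 2 h, 48.8, 49.2 and 50.7 after 6 h, 26.5 to 27.6 after 24 h and 8.74, 8.69 and 8.42 after 96 h. It was already lower in every library at 2 h, when its nascent RNA was not, and level between 2 h and 6 h. Its log2 change was -0.35 at 2 h (SE 0.03, adjusted p = 3.18e-05, limma), -0.36 at 6 h and -1.22 at 24 h. It came to -2.82 at 96 h, 7.39 times less than in DMSO.

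Sall4 fell more slowly. It was at 201, 207 and 195 TPM in DMSO. With dTAG-13 it read 191, 191 and 186 after 2 h, 167, 172 and 167 after 6 h, 113, 105 and 111 after 24 h and 52.6, 55.5 and 57.6 after 96 h. Each group lay below the one before, with no overlap. The change at 2 h was not called (-0.08, adjusted p = 0.178, limma), and those that followed were -0.25 at 6 h (adjusted p = 0.000365, limma), -0.87 at 24 h and -1.85 at 96 h. Even at 96 h Sall4 had the highest level of the family.

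Sall3, the least abundant, rose, fell and partly came back. It was at 2.90, 3.16 and 3.07 TPM in DMSO. With dTAG-13 it read 3.99, 4.59 and 4.17 after 2 h, 2.61, 2.54 and 2.57 after 6 h, 0.652, 0.470 and 0.657 after 24 h and 1.12, 1.09 and 1.10 after 96 h. The 2 h rise was 0.42 (SE 0.09, adjusted p = 0.00834, limma), with every library above DMSO. At 6 h it stood at -0.20, which was not called (adjusted p = 0.112, limma). At 24 h it was at -1.70 (SE 0.09, adjusted p = 2.38e-09, limma), at the 0.357th percentile of all changes, and between 24 h and 96 h it rose by 0.56 (adjusted p = 7.28e-05, limma). Its 24 h libraries were under the 1 TPM of the filter, which Sall3 passed only through the groups where it was higher. With no filter the adjusted p values were 2.69e-08 and 0.000160 (limma).

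Sall2 went the other way at 6 h and at 96 h. It was at 14.9, 15.0 and 15.1 TPM in DMSO. With dTAG-13 it read 16.6, 15.3 and 15.4 after 2 h, 20.1, 22.8 and 22.8 after 6 h, 14.4, 15.3 and 15.7 after 24 h and 29.1, 28.0 and 28.5 after 96 h. The 6 h rise was 0.53 (SE 0.05, adjusted p = 1.74e-05, limma) and the 96 h rise 0.91 (adjusted p = 9.15e-10, limma). At 24 h its libraries straddled those of DMSO, with a change of 0.01 (SE 0.05, adjusted p = 0.832, limma). The median log2 change of all genes was 0.13 at 24 h, and with libraries centred on their medians Sall2 was called lower at 24 h, at -0.28 (adjusted p = 0.000203, limma), while its 6 h and 96 h rises remained at 0.44 and 0.63.

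**Figure D2:**
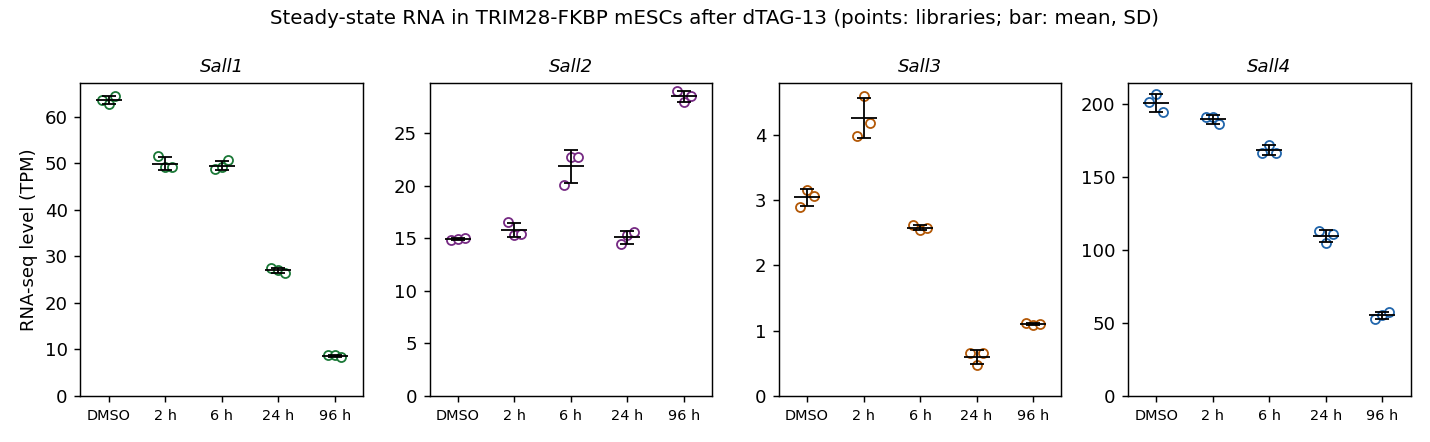
Steady-state RNA of the 4 Sall genes in TPM (vertical axes, each from 0) over the dTAG-13 time course, with a point per library and the mean and SD of 3. Mean TPM went from 63.7 in DMSO to 8.62 at 96 h for Sall1 and from 201 to 55.2 for Sall4, Sall3 was highest at 2 h and lowest at 24 h, and Sall2 was raised at 6 h and 96 h.

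Set against 17922 genes tested, the counts were as follows. At 2 h 1 Sall gene was called higher and 1 lower, where 8.25% and 7.02% of genes were. At 6 h 1 was higher and 2 were lower, where 18.4% and 15.5% of genes were. At 24 h 3 were lower and 0 higher, where 25.0% and 42.9% of genes were, and Sall1 and Sall3 also passed the 2-fold limit, as 2.01% of genes did in that direction. At 96 h 1 was higher and 3 were lower, where 42.9% and 37.4% of genes were, so a call alone says little there. From 24 h to 96 h Sall2 and Sall3 rose and Sall1 and Sall4 fell (37.4% of genes higher, 42.0% lower).

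The markers of the cells moved with these values. At 24 h 7 of the 8 mESC markers were lower and 1 higher, and their summed level went from 4907 to 5329 TPM in DMSO to 3314 to 3664. Endoderm markers then summed to 184 to 190 TPM against 151 to 167 in DMSO (4 of 9 higher, 2 lower), and feeder fibroblast markers to 26.5 to 28.9 against 21.5 to 22.2 (3 of 7 tested higher, 1 lower). At 6 h, when Sall2 was higher, 4 of 5 tested neural markers were higher and 0 lower, with sums of 78.6 to 84.6 TPM against 67.1 to 68.3. By 6 h 6 of the 8 mESC markers were also lower and 0 higher, at 3718 to 4336 TPM in sum. At 96 h, when Sall2 was highest, 1 of 5 tested neural markers was higher and 2 were lower. All 8 mESC markers were lower at 96 h, at 413 to 487 TPM in sum. By then 8 of 9 endoderm markers were higher, with sums of 577 to 587 TPM. The 8 feeder fibroblast markers summed to 275 to 298 TPM, with 7 of 7 tested higher. The part of these markers in the Sall values was not tested, and in bulk RNA fewer cells of a type and less RNA per cell cannot be told apart. Trim28 RNA, which does not report on the degraded protein, had means of 624 TPM in DMSO, 372 at 24 h and 192 at 96 h. Relative RNA-seq depth ran from 0.340 (24 h replicate 1) to 1.66.

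The make-up of the family shifted with them. The 4 genes summed to 283 ± 5.13 TPM (SD, n = 3) in DMSO, to 152 ± 4.05 at 24 h and to 93.5 ± 2.10 at 96 h. Sall4 gave 71.1% ± 0.841 of that sum in DMSO, 71.9% ± 0.773 at 24 h and 59.1% ± 1.45 at 96 h. Sall1 went from 22.5% to 17.8% and 9.22%, and Sall2 from 5.30% to 9.94% and 30.5%. At 96 h Sall2 had passed Sall1, with 3.31 times its TPM and no overlap. Sall3 gave at most 1.76% of the sum in any library of the time course, reached at 2 h.

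**Figure D3:**
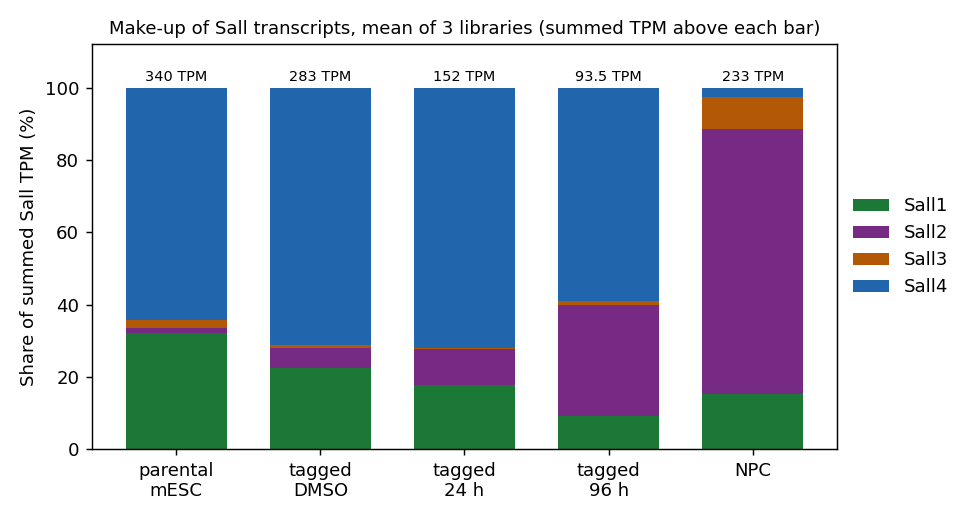
Share of each Sall gene in the summed TPM of the family (vertical axis, percent, mean of 3 libraries), with the summed TPM above each bar. Sall4 makes up 64.2% in parental mESCs and 71.1% in tagged mESCs in DMSO, and Sall2 makes up 73.4% in NPCs.

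Across the 15 time course libraries Sall1 and Sall4 ran closely together (Pearson r = 0.993 on log2(TPM + 0.5), Spearman rho = 0.907), a description over libraries that fall in 5 groups. Sall3 followed Sall4 less closely (r = 0.744) and Sall2 ran against Sall1 (r = -0.73). Among genes with a mean of at least 5 TPM, the 3 most like Sall4 were Dnmt3b (r = 0.998), a de novo DNA methyltransferase, the noncoding RNA Platr17 (0.998) and Jarid2 (0.997), a cofactor of Polycomb repressive complex 2. The 3 most like Sall1 were Vwa3b, Pelp1 and again Jarid2 (each 0.996). For Sall3 they were Kti12 (0.995), the kinase gene Plk3 (0.986) and Nifk (0.981), and for Sall2 they were the nucleoporin gene Pom121 (0.984), Syvn1 (0.968), which encodes a ubiquitin ligase of the endoplasmic reticulum, and the menin gene Men1 (0.967).

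Lists of genes whose products work with SALL proteins were followed beside the family, and both were drawn up with earlier results of these data known. Of 10 genes of the pluripotency network, 0 passed the test in nascent RNA at 2 h and 6 h, and 3 of 9 tested were lower at 24 h (5.59% of all genes), led by Klf4 at -1.02. In steady-state RNA 7 were lower at 6 h (15.5% of all genes), 7 lower and 1 higher at 24 h (25.0% and 42.9% of all genes), and 9 lower and 1 higher at 96 h (37.4% and 42.9%). Klf4 fell most at 24 h (-1.89), the homeobox gene Nanog was the one that rose then (0.54), and at 96 h Esrrb, a nuclear receptor gene, fell by 3.89 while the T-box gene Tbx3 rose by 0.26. The list median was -0.65 at 24 h and -2.18 at 96 h, against 0.13 and 0.05 over all genes. Sall4 at -0.87 and -1.85 lay below that median at 24 h and above it at 96 h.

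The 15 NuRD genes did not move as a block. In nascent RNA 1 of 13 tested was lower at 2 h (1.97% of all genes) and 0 passed at 6 h. At 24 h 4 of 13 tested were higher and 1 was lower, near the 32.3% and 5.59% of all genes that were. In steady-state RNA 3 were higher and 8 lower at 24 h, where 42.9% and 25.0% of all genes were, with Mta1 up by 0.57 and Mbd3 at -0.51. At 96 h 6 were higher and 8 lower, where 42.9% and 37.4% of all genes were. The remodeller gene Chd3 rose from a mean of 15.2 to 53.4 TPM (1.78), and its relative Chd5 fell from 4.72 to 0.342 TPM (-2.64). The list median was -0.14 at 24 h and -0.21 at 96 h. Chd3, like Sall2, had risen at 96 h and was also higher in NPCs.

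In the hairpin line the same directions appeared at 24 h for the 3 genes that had fallen, and with Dox added to dTAG-13 none of the 4 was called against DMSO. Groups are named here by their treatment tag. Thus dTAG-13 alone stands for the dTAG-13 group whose tag names no Dox, although its Dox status is uncertain. Sall1 was at 18.4, 19.9 and 19.5 TPM in DMSO, 7.03, 7.30 and 6.74 with dTAG-13 and 18.1, 18.3 and 17.6 with dTAG-13 and Dox. The dTAG-13 libraries lay far below both other groups, and those with Dox lay just below DMSO. Its log2 change with dTAG-13 was -1.39 (SE 0.06, adjusted p = 8.85e-09, limma), and Dox with dTAG-13 against dTAG-13 gave 1.30 (adjusted p = 1.60e-08, limma). This was the only Sall gene past the 2-fold limit in this line, in both comparisons, as 1.44% of genes were in the lower and 1.49% in the higher direction.

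Sall4 was at 130, 144 and 141 TPM in DMSO, 98.8, 94.8 and 98.2 with dTAG-13 and 140, 143 and 139 with Dox. The dTAG-13 libraries were the lowest and the other 2 groups overlapped. The changes were -0.50 with dTAG-13 (adjusted p = 3.63e-06, limma) and 0.53 with Dox against dTAG-13 alone (adjusted p = 2.90e-06, limma). Sall3 was at 1.19, 1.49 and 1.37 TPM in DMSO, 0.680, 0.684 and 0.731 with dTAG-13 and 1.11, 1.06 and 1.06 with Dox. Its libraries with Dox were all above dTAG-13 alone and all below DMSO. Only its DMSO and Dox libraries reached the 1 TPM that the filter asked for, so it was tested through the groups where it was high. The changes were -0.62 (adjusted p = 0.00136, limma, or 0.00239 with no filter) and 0.40 (adjusted p = 0.0220, limma, or 0.0225 with no filter), and the latter did not hold without any one of 5 of the 6 libraries, that is each dTAG-13 library and Dox replicates 1 and 2 (adjusted p of 0.0507 to 0.0680).

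Sall2 moved the opposite way in this line, at 9.20, 9.56 and 10.2 TPM in DMSO, 12.7, 12.1 and 12.8 with dTAG-13 and 10.3, 9.80 and 10.0 with Dox. The dTAG-13 libraries were the highest and the other 2 groups overlapped. It rose by 0.36 with dTAG-13 (adjusted p = 0.000374, limma) and fell by 0.31 with Dox against dTAG-13 alone (adjusted p = 0.00142, limma). The median log2 change of all genes with dTAG-13 was 0.14, and with centred libraries the rise of Sall2 was 0.20 (adjusted p = 0.00504, limma). Of 16166 genes, 41.2% were called higher and 12.8% lower with dTAG-13, where 1 Sall gene was higher and 3 were lower. With Dox against dTAG-13 alone 17.5% of genes were higher and 29.3% lower, where 3 Sall genes were higher and 1 was lower. These 2 comparisons share the dTAG-13 libraries.

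Between dTAG-13 with Dox and DMSO 0 of 4 genes were called by limma, and 0 at an unadjusted p under 0.05, with 0.0495% of all genes called higher and 0.0124% lower. The differences were -0.09 (SE 0.06) for Sall1, 0.05 (SE 0.06) for Sall2, -0.23 (SE 0.13) for Sall3 and 0.03 (SE 0.05) for Sall4. Sall1 and Sall3 were below DMSO in all 3 libraries, which the test does not tell from no difference. All 10 pluripotency genes were lower with dTAG-13 (12.8% of all genes) and all 10 higher with Dox against dTAG-13 alone (17.5% of all genes), with Klf4 at -1.91 and 1.96. Of the 15 NuRD genes 5 were higher and 1 lower with dTAG-13, where 41.2% and 12.8% of all genes were. mESC markers summed to 2429 to 2802 TPM in DMSO, 1258 to 1283 with dTAG-13 and 2679 to 2728 with Dox, and feeder markers to 106 to 114, 102 to 114 and 116 to 121. Endoderm markers summed to 265 to 291, 328 to 361 and 289 to 290.0 TPM, with 4 of 7 tested higher and 1 lower with dTAG-13. Neural markers summed to 64.7 to 70.0, 76.9 to 83.3 and 67.1 to 69.1 TPM, with 2 of 4 tested higher and 1 lower, so both sums were highest with dTAG-13, where Sall2 was highest. Their part in the Sall values was not tested.

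**Figure D4:**
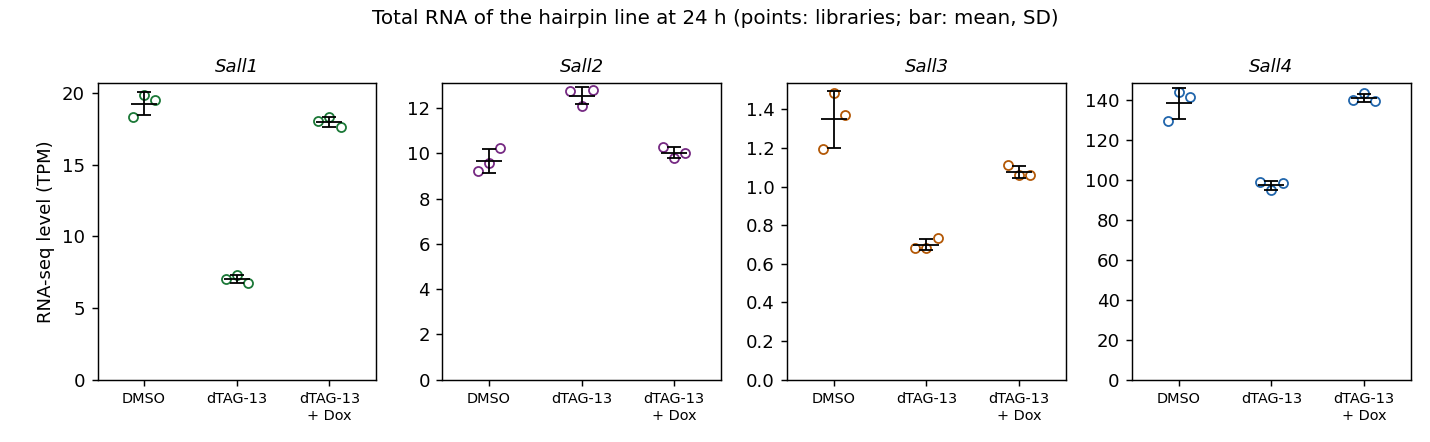
Total RNA of the 4 Sall genes in the hairpin line in TPM (vertical axes, each from 0), with a point per library and the mean and SD of 3. With dTAG-13 the mean of Sall1 was 7.03 TPM against 19.2 in DMSO and 18.0 with dTAG-13 and Dox, and Sall2 alone was highest with dTAG-13.

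The response at 24 h differed in size between the hairpin line and the time course. Taken as the change in the hairpin line minus that in the time course over 17653 genes, it was 1.08 for Sall3 (SE 0.17, adjusted p = 0.000198, limma), 0.37 for Sall4 (adjusted p = 0.000661, limma) and 0.35 for Sall2 (adjusted p = 0.00337, limma). Sall3 and Sall4 thus fell less in the hairpin line, and Sall2, level in the time course, rose. Sall3 reached the 1 TPM of the filter only in the DMSO libraries, so it was tested through the groups where it was high. Its dTAG-13 values were low in both experiments, and with no filter its adjusted p was 0.000723 (limma). For Sall1 the difference was -0.17 (adjusted p = 0.0551, limma). It was called with a pseudocount of 0.1 (adjusted p = 0.0253, limma), with no filter (0.0426), without DMSO replicate 1 (0.0194) and without dTAG-13 replicate 2 (0.0382) of the hairpin line, and with centred libraries it was -0.05 (0.523). In this interaction 26.2% of genes were called higher and 25.2% lower, so 3 of 4 called higher stands beside a broad difference. The 2 experiments differ in line, RNA selection and culture, which cannot be told apart. Sall1 was also lower in hairpin DMSO (mean 19.2 TPM) than in time course DMSO (63.7 TPM), values from different RNA preparations.

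The untagged parental mESCs had another balance of the 4 genes. Sall1 was at 110.7, 107 and 109.9 TPM there, all above the tagged line in DMSO (0.77, adjusted p = 3.16e-08, limma). Sall3, at 7.83, 7.88 and 8.01 TPM, was also higher (1.25), and Sall2, at 4.25, 4.96 and 4.68 TPM, was lower (-1.59), so that the order became Sall4, Sall1, Sall3 and Sall2. Sall4, at 218.5, 220.6 and 215.3 TPM, differed least (0.12, adjusted p = 0.00614, limma, or 0.31 with centred libraries). All 4 were called, 3 higher and 1 lower, where 25.0% of 17458 genes were higher and 41.0% lower. The sum reached 340 ± 1.74 TPM. Of the pluripotency genes 10 of 10 were higher in parental cells, led by Klf4 (2.88), as were 7 of 7 tested feeder markers, with a sum of 103 to 105 TPM. Neural markers were lower, at 29.5 to 32.3 TPM in sum against 67.1 to 68.3 (4 of 7 lower, 1 higher), as were endoderm markers, at 93.3 to 96.6 against 151 to 167 (4 of 9 lower, 0 higher). The part of these markers in the Sall values was not tested, and tag, clone and DMSO cannot be told apart here.

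In NPCs the family was turned over. Sall2 was at 169, 173 and 170 TPM, 11.4 times the tagged mESCs in DMSO (3.47, adjusted p = 4.80e-12, limma). Sall4 was at 6.04, 6.22 and 6.37 TPM, 32.3 times less than in mESCs (-4.91, adjusted p = 4.43e-14, limma). Sall3, at 20.1, 20.3 and 21.1 TPM, was 6.74 times higher (2.57), and Sall1, at 34.5, 34.6 and 36.5 TPM, was lower by 0.85 on the log2 scale. No library of one cell type overlapped the other for any of the 4 genes, a count that was not made over all genes. The order was Sall2, Sall1, Sall3 and Sall4.

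All 4 were called, 2 higher and 2 lower, where 49.5% and 39.5% of genes were, so a call or a lack of overlap alone says little here. Sall4 sat at the 1.38th percentile of all changes and Sall2 at the 96.4th. The summed family level, 233 ± 2.41 TPM, was nearer to that of mESCs in DMSO than the single genes were. All 7 neural markers were higher in NPCs, with sums of 3546 to 3601 TPM against 67.1 to 68.3, and Pou5f1, Zfp42 and Utf1 had 0 TPM. Of the pluripotency list 9 of 10 were lower and Sox2, which neural progenitors also use, was higher (1.04). Of the NuRD genes 9 were higher, led by Chd3 (3.32), and 5 lower, led by Mta3 (-3.40). After dTAG-13 neural markers were above DMSO at 6 h, at 51.8 to 61.4 TPM and below it at 24 h, and at 68.1 to 75.5 TPM at 96 h, overlapping DMSO, when Sall2 was at 28.5 TPM on average. Nes made up most of the 96 h sum, at a mean of 65.2 TPM against 53.0 in DMSO. Pax6 and Sox1 had means of 2.34 and 1.08 TPM then, against 5.02 and 5.28 in DMSO.

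MED23 peaks at the Sall genes were lower after 24 h of dTAG-13, as was the median gene start or SE with a peak in every library. A peak's fold enrichment is its height over the caller's local background, peaks were called per library by the authors, and the tagged line gave 63045 and 58925 MED23 peaks in DMSO against 15335 and 14551 at 24 h. With 2 libraries per group no exact permutation test can pass 0.05, so no test was made. The strongest MED23 peak in the SE near Sall1, whose summit sequence is printed above, reached a fold enrichment of 103 and 91.9 in DMSO, ranks 12 of 231 and 15 of 230 SEs with a peak. At 24 h it reached 9.48 and 9.87, ranks 79 and 81 of 190. The 7 peaks in each DMSO library became 1 in each 24 h library, and the covered part of the SE went from 26.7% and 33.3% to 3.97% and 3.93%.

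The ratio of means at 24 h over DMSO was 0.0993 for the Sall1 SE, below the lower quartile of SEs (0.217, median 0.301, over 189 SEs with a peak in every library). The SE at the start of Sall4 was near the middle, with 22.8 and 25.1 in DMSO, 8.22 and 6.03 at 24 h and a ratio of 0.298. Its peaks went from 8 and 7 to 5 and 5. Over all SEs the median of the highest fold was 25.4 and 25.1 in DMSO and 8.52 and 8.46 at 24 h. Sall1, whose RNA fell more at 24 h than that of Sall4, thus had the SE with the lower MED23 ratio, a comparison of 2 genes only. H3K27Ac did not single out the Sall1 SE, with a ratio of 0.713 beside a median of 0.729 over SEs with a peak in every library. In the Sall4 SE its ratio was 0.946, where 24 h replicate 2 alone reached 17.4.

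Within 2 kb of the gene starts MED23 reached 28.2 and 30.7 at Sall1, 19.4 and 20.7 at Sall3 and 22.8 and 25.1 at Sall4 in DMSO. At 24 h the values were 4.78 and 5.03, 4.95 and 5.02, and 4.87 and 4.14. The ratios of 0.167, 0.249 and 0.188 stood below 0.361, the median over the 3702 protein-coding starts with a MED23 peak in every library. Those were only 27.8% of the starts with a peak in both DMSO libraries. The rest lacked a peak in at least 1 library at 24 h and have no ratio, so the median leaves out the starts that lost most. With a window of 5 kb, moreover, the ratio at Sall4 was 0.328. Sall2 differed: its annotated start had a fold of 3.17 and 3.28 in DMSO and no peak at 24 h. The CG-rich inner start of Sall2 printed above was covered by peaks of 32.8 and 29.2 in DMSO and of 7.53 and 7.45 at 24 h, while the A/T-rich window at the gene start lay under no MED23 peak in any of the 4 libraries. MED23 thus lay lower at all 4 genes at 24 h, including Sall2, whose RNA did not fall in the tests on uncentred values.

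**Figure D5:**
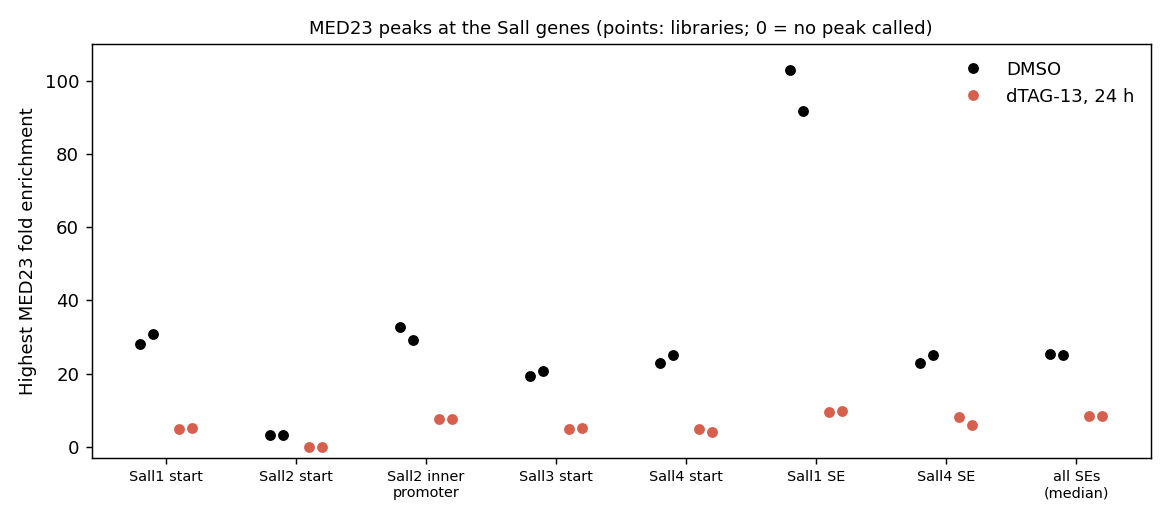
Highest MED23 fold enrichment (vertical axis, from 0, where 0 means no peak called) within 2 kb of each Sall gene start, at the inner Sall2 promoter, in the SEs near Sall1 and Sall4 and as the median over all listed SEs, with a point per library. The Sall1 SE stands at 103 and 91.9 in DMSO and at 9.48 and 9.87 after 24 h of dTAG-13.

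RNAPII peaks were found at the starts of Sall1 and Sall4 only. At Sall1 they reached 5.71 and 5.33 in DMSO with none at 24 h, and at Sall4 they reached 3.80 and 4.83 in DMSO and 5.03 and 4.48 at 24 h. Deposited RNAPII peaks numbered 19853 and 19194 in DMSO and 8182 and 7689 at 24 h. Of protein-coding starts with an RNAPII peak in both DMSO libraries, 50.7% kept one in both 24 h libraries, at a median ratio of 0.494, against 1.10 at Sall4, so a lost peak as at Sall1 was common. H3K27Ac, a mark of active promoters and enhancers, had its highest fold at the Sall1 start at 10.6, 9.34 and 9.05 in DMSO, and at 24 h there was no peak in replicate 1, 8.60 in replicate 2 and 2.64 in replicate 3. At the Sall4 start it was 7.97, 10.7 and 11.4 in DMSO and 3.61, 17.4 and 4.19 at 24 h. At Sall2 it was 3.52, 6.81 and 4.54 against 3.57, 4.51 and 3.04, and Sall3 had no H3K27Ac or RNAPII peak within 2 kb of its start. The ratios of 0.836 at Sall4 and 0.748 at Sall2 stood beside a median of 0.731 over protein-coding starts with an H3K27Ac peak in every library. Those were 64.2% of the starts with a peak in every DMSO library. The 24 h replicate 2 stood apart, with 117348 deposited H3K27Ac peaks against 30259 and 45662 in the other 24 h libraries, and with 3 libraries per group an exact test cannot go below 0.1. H3K9me3, the mark that TRIM28 helps to lay down, had no peak within 2 kb of any Sall start in 6 of 6 libraries, where 0.597% to 6.38% of protein-coding starts had one.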

How the data were processed

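Members were taken by gene symbol from the deposited tables. The authors made TT-SLAM-seq values as FPKM per gene from reads with T-to-C conversions, counted per gene, and the deposited values scale to the gene span, introns included. From 98.3% to 99.4% of values of up to 20 reads came out whole within 0.1. For RNA-seq, per the labels, the authors' processing names cutadapt 2.4, STAR 2.7.5a and StringTie 2.0.6, and each deposited table gives TPM. Its mean read coverage (signal, deposited unscaled) served only for depth. ChIP-seq peaks were called by the authors per library with MACS2 and give a fold enrichment, a ratio to local background. Positions follow GRCm38, and SE positions are those of an earlier mESC annotation that the study moved to this assembly.

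Log2 values after adding 0.5 entered limma 3.58.1 (R 4.3.3) with an intensity trend in the empirical Bayes step, all groups of an experiment sharing 1 fit, and Benjamini-Hochberg adjustment over all genes with at least 0.5 FPKM or 1 TPM in at least 3 libraries. A gene was called at an adjusted p below 0.05. The DESeq2 test used by the authors for nascent RNA was not run, and reads recovered from the FPKM entered limma's voom as an added alternative. The fit was tested on simulated data. Peaks overlapping a gene start by at least 1 bp within 2 kb, or an SE, were compared by their highest fold, with no test. Alternatives were other pseudocounts and filters, centring, fits of the compared groups alone, a replicate block, other windows and peak numbers, and leaving out each library. The named genes are the 4 members, the largest called rise and fall of each list, the 3 genes most like each member by Pearson r, cell type markers and Trim28. The members and lists were chosen with earlier results of these data known. The study calls its RNA replicates biological, and the labels number them without saying whether they were separate cultures, so p-values measure the spread between these samples, which may be technical. Same-numbered libraries correlated from -0.205 to 0.177 in their deviations, not above 0.1 for every pair in any comparison, so the numbers were not taken as pairs. Hi-C and single-cell data were not analysed here.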

Additional observations from a re-analysis of the deposited data

Results flagged for a closer look

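A difference between the 2 dTAG-13 experiments at 24 h drew attention to Sall2, Sall3 and Sall4, by the interaction test of limma over 17653 genes. The log2 change in the hairpin line minus that in the time course was 0.35 for Sall2 (SE 0.08, adjusted p = 0.00337), 1.08 for Sall3 (SE 0.17, adjusted p = 0.000198) and 0.37 for Sall4 (SE 0.07, adjusted p = 0.000661). The changes behind them were 0.36 against 0.01 for Sall2, -0.62 against -1.70 for Sall3 and -0.50 against -0.87 for Sall4. Sall3 passed the filter of 1 TPM only through the DMSO libraries, where it was high, and with no filter its adjusted p was 0.000723 (limma). In the same test 26.2% of all genes were called higher and 25.2% lower. The cell line, the RNA selection and the culture differ between the experiments and cannot be told apart.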

How the results depend on the processing

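Of 701 log2 changes of Sall genes recomputed under the alternatives, 679 kept their direction and their side of the threshold. Of 190 counts of Sall genes called, 186 stayed within 1.5 times. Of 82 peak ratios, 81 stayed within 1 SD of the libraries, a rule that does not ask whether the direction was kept. That SD is wide where libraries differ, as for H3K27Ac at the Sall4 start (3.61, 17.4 and 4.19 at 24 h), so the rule says little there. The counts that moved were those of nascent RNA at 24 h (3 genes), which was 1 with a mean of at least 5 FPKM, where fewer members pass the filter, and 1 with only the 2 groups fitted, of nascent RNA at 2 h, which went from 0 to 2 with voom on the recovered reads, and of RNA at 2 h, which went from 2 to 1 with a mean of at least 5 TPM. Without 1 library each, the counts ranged from 2 to 3 for nascent RNA at 24 h, from 3 to 4 for Dox with dTAG-13 against dTAG-13 and from 3 to 4 for the hairpin line against the time course (Sall1 being the added one), and the others did not move. Small changes turned sign: in dTAG-13 with Dox against DMSO Sall2 was -0.041 and Sall4 -0.0651 with centred libraries, and Sall2 RNA at 24 h was -0.28 with them. Without 1 library each, nascent Sall4 at 6 h ranged from -0.218 to 0.0397 (the latter without DMSO replicate 1), Sall2 RNA at 24 h from -0.0101 (without 24 h replicate 3) to 0.0461, and Sall4 in dTAG-13 with Dox against DMSO from -0.0182 (without DMSO replicate 1) to 0.0575. Centring called Sall3 RNA lower at 6 h (-0.29). The MED23 ratio at the Sall4 start was 0.328 within 5 kb against 0.188 within 2 kb. The cause was not tested, except where fewer genes or libraries entered. With the replicate block, 14 of 14 counts and 53 of 53 log2 changes kept their call, so pairing the numbers changed none. The read numbers behind Sall3 and Sall2 in nascent RNA, 21 to 235 per library, limit what can be seen there, and peak heights carry no scaling between libraries here.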
